A study of Homo sapiens with 6 samples.

Results

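The proteasome genes were followed in PANC-1 cells, a long-used human line from a pancreatic carcinoma, with knockdown of SHMT2, the mitochondrial serine hydroxymethyltransferase. Members were taken by symbol: PSM, 1 letter from A to G and a number. This gave 48 of the 20036 genes in the deposited table, and 2 longer symbols of other genes, PSMC3IP and PSME3IP1, were left out. The tested cells received SHMT2 knockdown lentivirus and their controls a null virus, with 3 RNA-seq libraries in each group. The labels give neither the hairpin sequence, the time after infection nor whether a single clone was used, and they do not say whether the 3 libraries of a group came from separate cultures. The p-values therefore cover only differences among these libraries, and these could be technical. In bulk RNA, fewer cells carrying a transcript and less of it per cell cannot be told apart.

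The proteasome is the protease that degrades ubiquitin-tagged proteins in the cytosol and nucleus. Its 20S core is a barrel of alpha rings around beta rings, and the beta subunits PSMB5, PSMB6 and PSMB7 carry the proteolytic sites. In cells exposed to interferon, PSMB8, PSMB9 and PSMB10 can take the places of PSMB5, PSMB6 and PSMB7 in newly assembled cores, which gives the immunoproteasome and changes the peptides made for HLA class I presentation. The 19S cap, built of PSMC ATPases and PSMD subunits, recognises and unfolds substrates, while PSME proteins are alternative activators and PSMG proteins help assemble the core.

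SHMT2 itself had 139, 56 and 101 counts in knockdown replicates 1, 2 and 3, against 2113, 2284 and 2417 counts in control replicates 1, 2 and 3. The knockdown libraries held 3.55% of the mean control level (log2 fold change -4.80, adjusted p = 1.04e-05, quasi-likelihood test of edgeR, adjusted by Benjamini-Hochberg over all tested genes). Library totals ran from 15405884 to 19075734 counts. Knockdown replicate 2 and control replicate 1 stood apart from the rest of their groups: the chi-square per gene was 74.7 and 76.3 against the other knockdown libraries and 26.0 and 31.1 against the other controls, while it was 2.46 and 2.07 between the remaining pairs. Mitochondrially encoded genes took 10.4% of counts in knockdown replicate 2 and 4.72% in each of the other 2 knockdown libraries, against 5.78% to 6.86% in the controls. Many calls change without these libraries, and only some of them are named below. The epithelial keratin KRT19, a marker chosen for this cell line, had 1523, 900 and 1518 counts in the knockdown libraries. It had only 3, 4 and 0 counts in the control libraries, so that this marker was nearly absent from the controls. KRT8 and KRT18 were abundant in all 6 libraries, and KRT7 was scarce in all, with 14 to 40 counts in knockdown libraries and 14 to 20 in control libraries. Of the 8 epithelial markers tested, KRT19, KRT8, CDH1 and MUC1 were higher, 4 of 8 (50%, against 26.7% of all tested genes). EPCAM alone was lower (12.5%, against 25.1% of all tested genes). It had 120, 124 and 141 counts in knockdown cells, against 286, 279 and 278 counts in control cells (log2 fold change -1.38, adjusted p = 0.00017, edgeR). The part of these marker differences in the results on the proteasome was not tested.

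Of the 48 members, 46 passed the filter on low counts and were tested. PSMA8, the alpha subunit of the testis proteasome, and PSMB11, the catalytic subunit of the thymus proteasome, had no count in any of the 6 libraries. In edgeR at an adjusted p below 0.05, 3 members (6.52%) were higher in knockdown cells, against 26.7% of all 12292 tested genes. Another 12 members (26.1%) were lower, against 25.1% of all tested genes, so that the share of falling members was close to the background. The remaining 31 made no call, while 51.8% of all tested genes were called in 1 direction or the other. The members that rose were PSMB8, PSMB9 and PSMA1. The median log2 fold change of the tested members was -0.21, and it was 0.00 over all tested genes. Normalised levels of the groups did not overlap for 20 of 46 members (43.5%), against 61.4% of all tested genes. Without knockdown replicate 2 and control replicate 1, 13 members were higher and 25 lower, with backgrounds of 36.9% and 36.7%, and the median was -0.18.

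The largest differences were in the inducible catalytic subunits. PSMB8 and PSMB9 rose 30.2-fold and 7.13-fold in the knockdown cells, while PSMB10 made no call. The control level of PSMB8 lies under the filter minimum, with 4 to 6 counts in each control, and its fold is only as exact as those counts. The 3 constitutive counterparts had negative log2 fold changes that did not pass edgeR over all 6 libraries, and 2 of them passed DESeq2. Because PSMB8 and PSMB9 were the members that moved most, the promoter windows of the 3 interferon-inducible catalytic subunits, of the likewise inducible activator subunits PSME1 and PSME2 and of the constitutive PSMB5 are shown. Each holds 300 bases, 250 before and 50 from the start site, from RefSeq on GRCh38.p14, written 5′ to 3′ on the strand of the gene. They are chr6:32843998-32844297 (minus strand) for PSMB8, chr6:32853942-32854241 (plus) for PSMB9, chr16:67936801-67937100 (minus) for PSMB10, chr14:24135944-24136243 (plus) for PSME1, chr14:24146561-24146860 (minus) for PSME2 and chr14:23035171-23035470 (minus) for PSMB5. Capitals mark matches, on either strand, to a GAS element (TTCNNNGAA, found at interferon-gamma-inducible genes), an interferon response element (ISRE, GAAA and GAAA with 2 bases of any kind between, bound by IRF proteins), an NF-kB site (GGGA and CC with 4 bases of any kind between) or an antioxidant response element (ARE, TGACNNNGC).
PSMB8: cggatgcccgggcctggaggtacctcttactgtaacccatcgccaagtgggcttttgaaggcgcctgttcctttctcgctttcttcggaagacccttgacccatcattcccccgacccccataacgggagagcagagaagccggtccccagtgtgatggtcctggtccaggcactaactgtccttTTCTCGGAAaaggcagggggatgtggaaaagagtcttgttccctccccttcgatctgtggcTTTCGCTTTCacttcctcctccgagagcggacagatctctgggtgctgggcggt
PSMB9: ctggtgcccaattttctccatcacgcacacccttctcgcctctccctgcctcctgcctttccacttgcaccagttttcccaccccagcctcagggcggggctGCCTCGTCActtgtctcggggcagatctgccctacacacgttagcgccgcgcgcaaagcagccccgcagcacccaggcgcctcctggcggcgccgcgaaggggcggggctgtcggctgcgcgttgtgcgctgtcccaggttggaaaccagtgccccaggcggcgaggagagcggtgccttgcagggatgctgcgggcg
PSMB10: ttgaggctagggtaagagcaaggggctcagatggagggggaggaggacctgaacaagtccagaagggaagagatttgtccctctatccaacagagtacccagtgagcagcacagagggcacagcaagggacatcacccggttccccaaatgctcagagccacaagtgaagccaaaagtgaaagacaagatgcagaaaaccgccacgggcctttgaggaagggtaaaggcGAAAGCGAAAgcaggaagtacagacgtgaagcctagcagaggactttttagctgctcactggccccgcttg
PSME1: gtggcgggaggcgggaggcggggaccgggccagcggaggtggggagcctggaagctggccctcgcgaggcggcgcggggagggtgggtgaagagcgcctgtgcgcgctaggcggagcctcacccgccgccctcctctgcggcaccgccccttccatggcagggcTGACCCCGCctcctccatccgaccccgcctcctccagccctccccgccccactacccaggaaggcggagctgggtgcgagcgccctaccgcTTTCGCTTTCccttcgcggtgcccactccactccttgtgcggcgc
PSME2: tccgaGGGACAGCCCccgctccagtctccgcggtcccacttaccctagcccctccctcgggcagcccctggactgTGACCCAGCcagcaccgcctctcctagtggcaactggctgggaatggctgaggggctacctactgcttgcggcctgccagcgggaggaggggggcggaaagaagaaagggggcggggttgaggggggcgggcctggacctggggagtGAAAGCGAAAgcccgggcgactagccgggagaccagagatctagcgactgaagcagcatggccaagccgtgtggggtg
PSMB5: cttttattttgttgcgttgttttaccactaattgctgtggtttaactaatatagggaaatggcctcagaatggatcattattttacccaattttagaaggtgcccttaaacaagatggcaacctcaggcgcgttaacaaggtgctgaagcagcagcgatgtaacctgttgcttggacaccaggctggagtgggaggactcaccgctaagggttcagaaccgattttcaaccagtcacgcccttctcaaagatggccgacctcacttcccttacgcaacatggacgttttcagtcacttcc

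The PSMB8 window held a GAS match at position -65 from the start site and an ISRE match on the opposite strand at -4. PSMB8 has a further window, at chr6:32844630-32844929, with no match to any of the 4 motifs. The PSMB10, PSME1 and PSME2 windows each held an ISRE match, at -21, 5 and -28. PSME1 and PSME2 also held an ARE match, at -86 and -175, and PSME2 an NF-kB match at -245. In the PSMB9 window only an ARE match was found, at -148, and in the PSMB5 window shown there was none, although the other PSMB5 window, at chr14:23034851-23035150, held 2 GAS matches. No match shown overlaps a match to another motif. RefSeq windows were found for 42 of the 48 members, 51 windows in all. An ISRE match was in 7 of these (13.7%), against 3.57% of 35116 windows of all genes. GAS matches were in 8 (15.7%) against 7.66%, NF-kB matches in 12 (23.5%) against 25.6%, and ARE matches in 15 (29.4%) against 13.3%. The other members with an ISRE match were PSMA4, PSMB4 and PSMG4, whose log2 fold changes were 0.21, -0.21 and -0.27, none of them called. A match to the letters describes the window and is not evidence that a factor binds there.

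PSMB8 (ENSG00000204264, chromosome 6, 32840717 to 32844679, minus strand), the inducible chymotrypsin-like subunit also known as LMP7, had 231, 84 and 214 counts in knockdown replicates 1, 2 and 3, against 4, 6 and 4 counts in control replicates 1, 2 and 3. Every knockdown library lay far above every control library, and knockdown replicate 2 was the lowest of its group. The normalised level averaged 9.23 ± 3.55 CPM in knockdown cells and 0.302 ± 0.0856 CPM in control cells (SD, n = 3 each), with CPM the count scaled to a common library total with TMM factors. This was a log2 fold change of 4.92 (SE 0.45, adjusted p = 0.000157, edgeR), the 46th largest of the 12292 tested genes. PSMB8 passed the filter through the knockdown libraries alone: no control library reached the minimum of 0.604 CPM.

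PSMB9 (ENSG00000240065, chromosome 6, 32844136 to 32859851, plus strand), the inducible caspase-like-site subunit or LMP2, had 83, 37 and 82 counts in knockdown cells, against 5, 12 and 6 counts in control cells. The groups did not overlap here either, and the lowest knockdown library stood above the highest control by more than 2 times in counts. The mean was 3.54 ± 1.11 CPM in knockdown cells and 0.498 ± 0.264 CPM in controls (SD, n = 3 each), a log2 fold change of 2.83 (SE 0.41, adjusted p = 0.00103, edgeR). In the table's spans PSMB9 and PSMB8 share 139 exonic bases, under 5% of each gene, on opposite strands, and TAP1 (32845209 to 32853816, minus strand) lies within the span given for PSMB9. PSMB9 reached the filter minimum in 3 of 3 knockdown libraries and in 1 of 3 controls.

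PSMB10 (ENSG00000205220, chromosome 16, 67934506 to 67936864, minus strand), the inducible trypsin-like subunit or MECL-1, was scarce everywhere, with 20, 7 and 22 counts in knockdown cells, against 9, 10 and 11 counts in control cells. The ranges overlapped, because knockdown replicate 2 lay below all 3 controls. The log2 fold change of 0.43 (SE 0.40) had an adjusted p of 0.389 in edgeR, and 0.190 without knockdown replicate 2 and control replicate 1. Of its exonic bases, 34.8% are shared on the same strand with ENSG00000261884, a gene with 125 counts over the 6 libraries. The part of this overlap in the low counts of PSMB10 was not tested.

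PSMB5, the constitutive chymotrypsin-like subunit, had 1846, 797 and 1853 counts in knockdown cells, against 1498, 2018 and 2126 counts in controls. Per library total, knockdown replicate 2 was far below the others and control replicate 1 the lowest control, and the groups overlapped. PSMB5 averaged 78.7 ± 26.1 CPM in knockdown cells and 121 ± 23.3 CPM in control cells, a log2 fold change of -0.62 (SE 0.26, n = 3 each, adjusted p = 0.0789, edgeR). PSMB6, the constitutive caspase-like subunit, averaged 113 ± 41.1 CPM in knockdown cells and 172 ± 33.4 CPM in control cells, with a log2 fold change of -0.60 (adjusted p = 0.107, edgeR). PSMB7, the constitutive trypsin-like subunit, averaged 132 ± 41.0 CPM in knockdown cells and 201 ± 38.1 CPM in control cells, with a log2 fold change of -0.61 (adjusted p = 0.0719, edgeR). All 3 missed the threshold of edgeR over the 6 libraries, while DESeq2 on the same libraries called PSMB5 and PSMB7 lower (adjusted p = 0.0393 and 0.0352). Without knockdown replicate 2 and control replicate 1 each was called lower, with log2 fold changes of -0.52, -0.47 and -0.51. Leaving out control replicate 1 alone brought the adjusted p to 0.0490 for PSMB5 and 0.0427 for PSMB7 in edgeR.

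**Figure D1:**
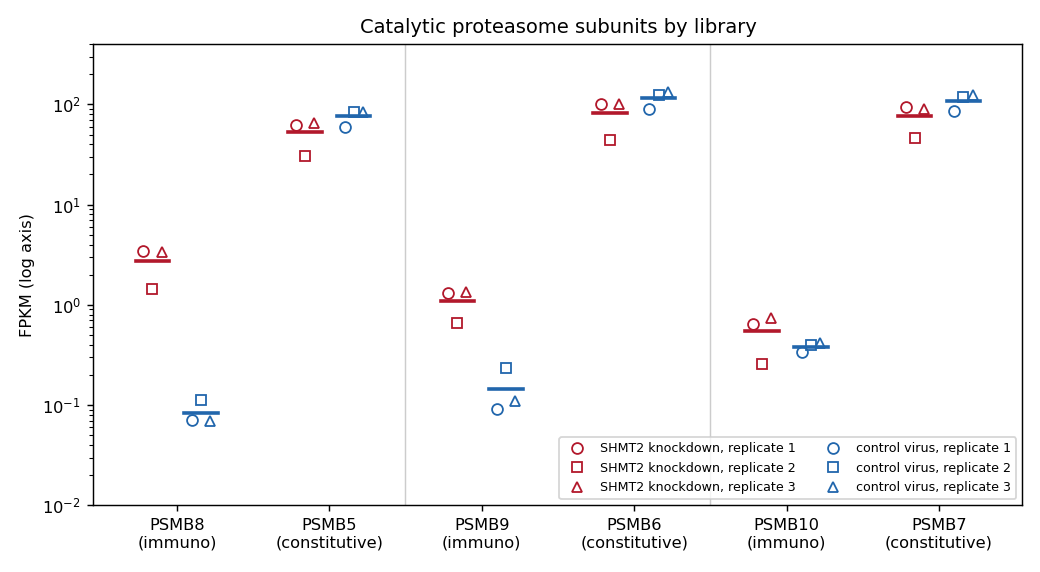
Levels of the 6 catalytic subunits in each library, in FPKM on a log axis, with SHMT2 knockdown (red) left of control virus (blue) and bars at the group means. PSMB8 and PSMB9 lie above all controls in every knockdown library, yet below their constitutive counterparts, and knockdown replicate 2 is the lowest knockdown library for all 6 genes.

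The comparison of each inducible subunit with the constitutive subunit whose place it takes was made within a library, so it needs no scaling between libraries. The FPKM values used for it are the authors' fragment counts scaled by gene length and library total. That length is the one given for the gene, not that of an expressed transcript, and the shares depend on it. PSMB8 made up 5.28%, 4.48% and 4.89% of PSMB8 and PSMB5 together in knockdown replicates 1, 2 and 3, against 0.119%, 0.132% and 0.0837% in control replicates 1, 2 and 3. The share was low in both groups but did not overlap between them, and knockdown replicate 2, the lowest in counts, sat close to the other knockdown libraries. The exact 95% binomial intervals, which cover counting error only, ran from 3.57% to 5.55% for knockdown replicate 2 and from 0.0323% to 0.304% for control replicate 1, the libraries whose intervals came closest. The log2 ratio of PSMB8 to PSMB5, with 0.01 FPKM added, was 5.38 higher in knockdown cells, or 41.7-fold. The control values lie near the amount added, and with 1 FPKM added the log2 difference was 2.31.

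PSMB9 made up 1.29%, 1.46% and 1.32% of PSMB9 and PSMB6 together in knockdown cells, against 0.101%, 0.188% and 0.0832% in control cells. Here knockdown replicate 2 had the highest share of its group, although both of its counts were the lowest. The log2 ratio was 3.46 higher in knockdown cells, or 11.01-fold, and 1.43 higher with 1 FPKM added. PSMB10 made up 0.687%, 0.553% and 0.813% of PSMB10 and PSMB7 together in knockdown cells, against 0.395%, 0.336% and 0.336% in control cells, a log2 ratio 0.93 higher, or 1.91-fold. The shares of PSMB10 did not overlap between the groups, but their counting intervals did. For each of the 3 pairs the exact 2-sided permutation test over the 6 libraries gave p = 0.1, the lowest that 3 against 3 libraries allow (0.1 after Benjamini-Hochberg adjustment over the 3 pairs). Measured with exon lengths of GENCODE 29 in place of the table's, the mean share of PSMB8 was 6.36% in knockdown cells and 0.147% in control cells.

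**Figure D2:**
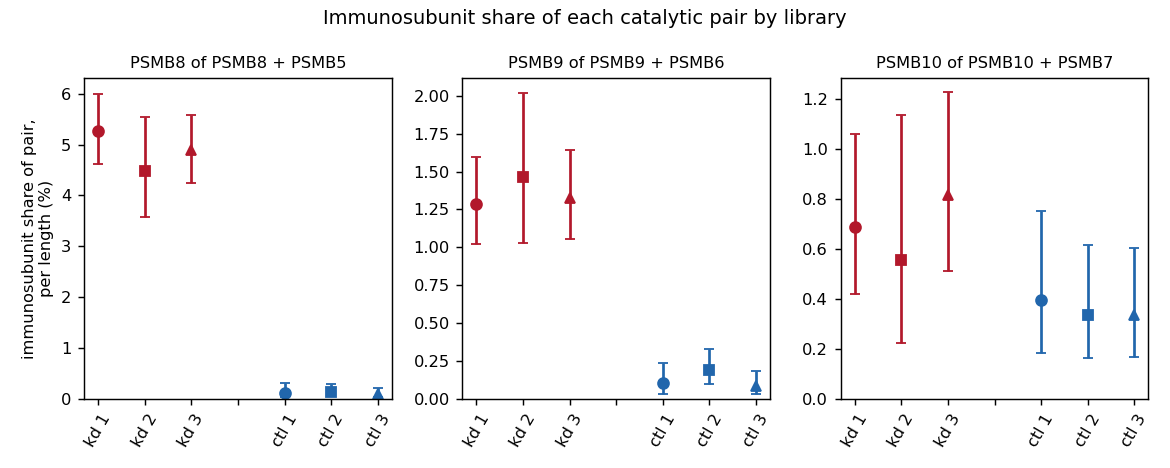
Share of the inducible subunit in each catalytic pair, in percent per length, for knockdown replicates 1 to 3 (kd, red) and control replicates 1 to 3 (ctl, blue), with exact 95% binomial intervals and a separate axis for each pair. The knockdown libraries hold 4.48% to 5.28% PSMB8, against 0.132% or less in the controls, and the counting intervals of the groups stay apart for PSMB8 and PSMB9 but overlap for PSMB10.

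The alpha subunits form the outer rings and the gate of the core. Of 7 tested, 1 rose (14.3%, against 26.7% of all tested genes) and none fell (against 25.1%). Their median log2 fold change was 0.21. PSMA1 had 175, 123 and 216 counts in knockdown cells, against 79, 87 and 91 counts in control cells, with no overlap. It averaged 9.13 ± 1.87 CPM in knockdown cells and 5.51 ± 0.470 CPM in control cells (log2 fold change 0.73, SE 0.18, n = 3 each, adjusted p = 0.0118, edgeR). The counts of PSMA1, PSMA2 and PSMA6 were far below those of the other alpha subunits: PSMA2 had 50 to 74 counts in knockdown cells and 28 to 46 in control cells, and PSMA6 had 38 to 56 in knockdown cells and 33 to 46 in control cells, while PSMA3, PSMA4, PSMA5 and PSMA7 each had 1088 to 5643 counts in every library. Exons of these 3 genes overlap other annotated genes on the same strand, over 24.7%, 14.6% and 14.1% of their bases, and those genes had 0, 6 and 7 counts over the 6 libraries. The part of the overlap in the low counts was not tested. PSMA3, PSMA4 and PSMA7 had log2 fold changes of 0.21, 0.21 and 0.01, and PSMA5 of -0.12 (adjusted p = 0.640, edgeR), with no call. Without knockdown replicate 2 PSMA3 was called higher (0.38, adjusted p = 0.00662, edgeR), and without control replicate 1 PSMA4 was (0.30, adjusted p = 0.0166).

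Of the non-catalytic beta subunits, which complete the inner rings, PSMB1 and PSMB2 fell and PSMB3 and PSMB4 made no call. PSMB2 averaged 46.8 ± 0.282 FPKM in knockdown cells and 58.5 ± 4.29 FPKM in control cells (log2 fold change -0.40, SE 0.09, n = 3 each, adjusted p = 0.00823, edgeR), with no overlap. The call of PSMB1 (log2 fold change -0.45, adjusted p = 0.0447, edgeR) was lost without knockdown replicate 1 (0.0523), control replicate 2 (0.123) or control replicate 3 (0.124). PSMB3 and PSMB4 had log2 fold changes of -0.49 and -0.21 (adjusted p = 0.121 and 0.377, edgeR). The 4 chaperones that assemble the core, PSMG1 to PSMG4, had log2 fold changes between -0.57 and -0.25 and made no call in all 6 libraries. All 4 were called lower without knockdown replicate 2 and control replicate 1, and PSMG1, PSMG3 and PSMG4 also without control replicate 1 alone (adjusted p = 0.0343, 0.0304 and 0.0433, edgeR).

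In the 19S cap 7 of 17 subunits (41.2%) fell and none rose, beside 25.1% and 26.7% of all tested genes. Without knockdown replicate 2 and control replicate 1, 10 were lower and 4 higher, with backgrounds of 36.7% and 36.9%. The 4 were PSMC6, PSMC2, PSMC3 and PSMD1, with log2 fold changes of 0.27, 0.22, 0.16 and 0.11 in that setting. Of the 6 ATPases, which unfold the substrate and open the gate, only PSMC5 was called over all 6 libraries. It had 1650, 942 and 1545 counts in knockdown cells, against 1945, 2152 and 2316 counts in control cells, below them in every library. PSMC5 averaged 73.1 ± 13.6 CPM in knockdown cells and 138 ± 13.2 CPM in control cells, a log2 fold change of -0.91 (SE 0.15, n = 3 each, adjusted p = 0.00194, edgeR). Exons of FTSJ3 on the opposite strand cover 19.5% of the PSMC5 exons, and the strand setting of the counts is not given in the sources used here. PSMC6, PSMC2, PSMC3, PSMC4 and PSMC1 had log2 fold changes of 0.12, 0.10, 0.08, -0.05 and -0.28, none called over all 6 libraries. Without knockdown replicate 2 PSMC1 was called lower (-0.40, adjusted p = 0.00433, edgeR). PSMC1 shares 75.8% of its exonic bases with NRDE2 on the opposite strand.

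PSMC4 had the highest level of all members, a point noticed after the values were seen. It had 830, 622 and 815 FPKM in knockdown cells, against 676, 760 and 776 FPKM in control cells, overlapping ranges (adjusted p = 0.720, edgeR). The next member, PSMD2, averaged 135 ± 19.1 FPKM in knockdown cells and 194 ± 13.97 FPKM in control cells. PSMC4 took 24.2% to 25.01% of all member counts in knockdown libraries, against 20.7% to 21.7% in control libraries.

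Of the 11 non-ATPase cap subunits, 6 fell (54.5%, against 25.1% of all tested genes) and 10 had a negative log2 fold change, as had 6126 of the 12292 tested genes. Their median was -0.42. PSMD8, a lid subunit, had 4105, 2964 and 3987 counts in knockdown cells, against 4980, 5798 and 6410 counts in control cells, below every control. It averaged 47.1 ± 5.29 FPKM in knockdown cells and 83.0 ± 10.5 FPKM in control cells, a log2 fold change of -0.90 (SE 0.12, n = 3 each, adjusted p = 0.000701, edgeR). PSMD3, a lid subunit, averaged 27.3 ± 1.75 FPKM in knockdown cells and 43.9 ± 3.15 FPKM in control cells, a log2 fold change of -0.77 (adjusted p = 0.000385, edgeR). PSMD2, the scaffold that holds ubiquitin receptors and shuttle factors at the base, fell by 0.61 on the log2 scale (adjusted p = 0.00267, edgeR). The lid subunits PSMD6, PSMD12 and PSMD11 fell by 0.54, 0.48 and 0.42 on the log2 scale (adjusted p = 0.00142, 0.00992 and 0.00408, edgeR). In CPM all 6 were below all 3 controls in each of the 3 knockdown libraries, as were PSMD7 and PSMD14, which made no call. The groups thus did not overlap in CPM for 8 of the 11 (72.7%), against 61.4% of all tested genes. In FPKM the groups of PSMD14 overlapped, with 26.7, 18.7 and 26.7 in knockdown cells against 26.6, 25.4 and 25.5 in control cells. The ubiquitin receptor PSMD4, the deubiquitinase PSMD14 with its partner PSMD7, and PSMD13 had log2 fold changes of -0.18, -0.19, -0.22 and -0.19 with no call, and PSMD1, the other large scaffold of the base, had 0.01 (adjusted p = 0.927, edgeR). PSMD7 was called lower without knockdown replicate 2 (adjusted p = 0.0447, edgeR).

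Of the cap's assembly chaperones, PSMD9 averaged 0.155 ± 0.0437 FPKM in knockdown cells and 0.320 ± 0.0959 FPKM in control cells (log2 fold change -1.12, SE 0.30, n = 3 each, adjusted p = 0.0168, edgeR). This call rests on 34, 21 and 19 counts in knockdown cells, against 33, 57 and 44 counts in control cells, and it was lost without knockdown replicate 3 (adjusted p = 0.0544) or control replicate 2 (0.0646). PSMD10, also known as gankyrin, had a log2 fold change of -0.04 and PSMD5 of -0.29, with no call. PSMD5 was called lower without knockdown replicate 2 (-0.38, adjusted p = 0.0322, edgeR) or control replicate 3 (-0.38, adjusted p = 0.0486).

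**Figure D3:**
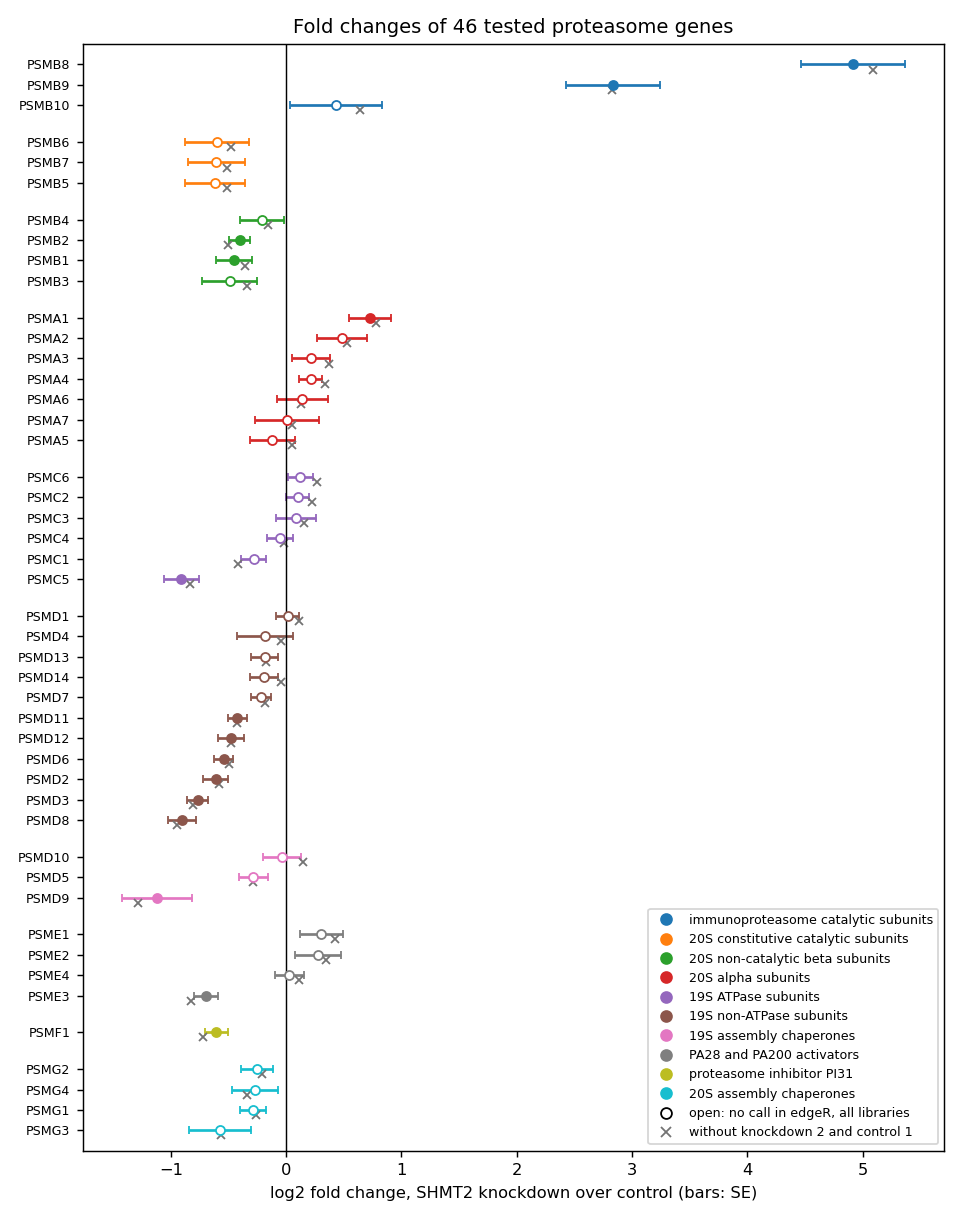
Log2 fold change of SHMT2 knockdown over control for the 46 tested members, grouped by role from the top, with bars for the standard error, filled circles for members called by edgeR and grey crosses for the value without knockdown replicate 2 and control replicate 1. PSMB8 at 4.92 and PSMB9 at 2.83 stand apart, while every other member lies between -1.12 and 0.73.

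Core and cap were set side by side as mean log2 FPKM per library over 14 constitutive core subunits and 17 cap subunits. The core mean was 4.69, 4.04 and 4.76 in knockdown replicates 1, 2 and 3, against 4.38, 4.63 and 4.67 in control replicates 1, 2 and 3. The cap mean was 5.25, 4.95 and 5.25 in knockdown cells, against 5.36, 5.41 and 5.40 in control cells. The cap was thus below all 3 controls in each knockdown library, while the core overlapped, with knockdown replicate 2 and control replicate 1 lowest in their groups. The core minus cap difference was -0.56, -0.91 and -0.49 in knockdown cells, against -0.98, -0.78 and -0.74 in control cells. It averaged -0.65 ± 0.23 in knockdown cells and -0.83 ± 0.13 in control cells (SD, n = 3 each). These ranges overlapped, and the difference of 0.18 between the groups changed sign, to -0.15, when FPKM were summed before taking logs. Without knockdown replicate 2 the difference was 0.31 and the ranges did not overlap, and without both libraries that stood apart it was 0.24. The difference of core against cap was not tested, and its size and sign rest on these choices. Each subunit weighed the same in the core and cap means, the scarce PSMA1, PSMA2 and PSMA6 included. They averaged 3.09, 0.409 and 0.423 FPKM in knockdown cells and 1.76, 0.275 and 0.363 FPKM in control cells. Their log2 fold changes were 0.73, 0.49 and 0.14, while 8 of the 14 core subunits had negative ones. In the sums PSMC4 weighed most, at 755 FPKM in knockdown cells and 737 FPKM in control cells. The part of these genes in the difference was not tested.

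The libraries that stood apart did so unevenly over the complex. Knockdown replicate 2 lay below the mean of the other knockdown libraries for 13 of 14 core subunits, with a median log2 deviation of -0.61, and for 12 of 17 cap subunits, with a median of -0.15. Control replicate 1 lay below the mean of the other controls for 13 of 14 core subunits (median -0.27) and for 9 of 17 cap subunits (median -0.10). The mitochondrially encoded share of counts given above was highest in knockdown replicate 2 and lowest among the controls in control replicate 1. Its part in the core values was not tested.

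**Figure D4:**
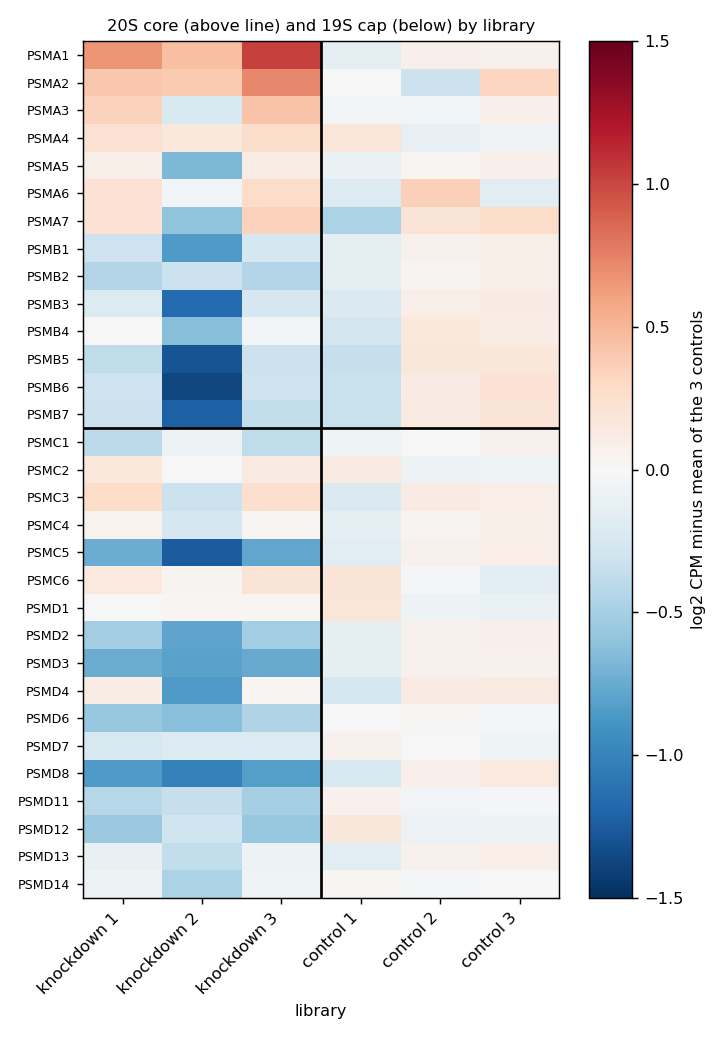
Log2 CPM minus the mean of the 3 control libraries, for 14 core subunits above the black line and 17 cap subunits below it, with knockdown libraries left of control libraries. In knockdown replicate 2 and control replicate 1, 13 of 14 core subunits are below the mean of the rest of their own group. PSMC5, PSMD2, PSMD3, PSMD6 and PSMD8 of the cap are among those below all controls in all 3 knockdown libraries, as are PSMB1 and PSMB2 of the core. Groups do not overlap, in either direction, for 10 of 17 cap subunits (58.8%) and 4 of 14 core subunits (28.6%), against 61.4% of all tested genes.

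Among the activators, PSME1 and PSME2 form the interferon-inducible PA28 alpha-beta ring, which caps the core and eases the release of peptides. PSME1 had 526, 297 and 580 counts in knockdown cells, against 290, 305 and 342 counts in control cells. It averaged 24.8 ± 6.06 CPM in knockdown cells and 20.1 ± 1.71 CPM in control cells, a log2 fold change of 0.30 (SE 0.18, n = 3 each, adjusted p = 0.201, edgeR). PSME2 averaged 48.0 ± 11.9 CPM in knockdown cells and 39.7 ± 6.03 CPM in control cells, with a log2 fold change of 0.27 (adjusted p = 0.282, edgeR). For both, knockdown replicate 2 lay within or below the control range and the other 2 knockdown libraries lay above it. Without knockdown replicate 2 they were called higher, with log2 fold changes of 0.47 and 0.46 (adjusted p = 0.0119 and 0.0260, edgeR).

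PSME3, the nuclear activator PA28 gamma, had 3070, 2891 and 2836 counts in knockdown cells, against 3775, 3994 and 4209 counts in control cells, with no overlap. It averaged 159 ± 15.8 CPM in knockdown cells and 257 ± 16.7 CPM in control cells, a log2 fold change of -0.70 (SE 0.10, n = 3 each, adjusted p = 0.00115, edgeR). PSME4, the activator PA200, had a log2 fold change of 0.03 (adjusted p = 0.870, edgeR). PSMF1, the proteasome-binding protein PI31, averaged 109 ± 12.3 CPM in knockdown cells and 166 ± 4.30 CPM in control cells, a log2 fold change of -0.61 (SE 0.10, n = 3 each, adjusted p = 0.00194, edgeR). Its groups did not overlap.

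Genes of the pathways around the proteasome were read from lists. Over all tested genes, 26.7% were called higher and 25.1% lower. Of 16 other subunits, assembly and associated factors, 3 rose and 3 fell (18.75% each), with a median of 0.00. POMP, which matures both kinds of core, had a log2 fold change of -0.33 (adjusted p = 0.355, edgeR), and the ubiquitin receptor ADRM1 fell by 0.60 on the log2 scale (adjusted p = 0.00567, edgeR). The transcription factor NRF1 raises proteasome genes when proteasome activity is short. Of 10 genes of this pathway, 3 rose (30%) and 2 fell (20%), near the shares over all tested genes. NFE2L1, which encodes NRF1, fell by 0.46, and NGLY1, the deglycosylase that NRF1 needs, fell by 0.77 on the log2 scale (adjusted p = 0.00220 and 0.00121, edgeR). NFE2L2, which encodes NRF2, rose by 0.98 (adjusted p = 0.00211, edgeR). Of 16 tested genes of ubiquitin supply and shuttling, 5 rose (31.25%) and 3 fell (18.75%), also near those shares. The unfoldase VCP was among those that fell, with a log2 fold change of -0.62 (adjusted p = 0.00509, edgeR).

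Of 20 tested genes that carry interferon-gamma and TNF signals, 5 rose (25%, against 26.7% of all tested genes) and 2 fell (10%, against 25.1%), with a median of 0.10 against 0.00. IRF1, which acts on ISRE elements, averaged 12.7 ± 1.43 CPM in knockdown cells and 6.26 ± 0.997 CPM in control cells, a log2 fold change of 1.02 (adjusted p = 0.00166, edgeR). NFKB1 and the feedback inhibitor SOCS3 fell by 0.64 and 0.96 on the log2 scale. NLRC5, a regulator of class I genes, and CIITA, a regulator of class II genes, made no call. Their log2 fold changes were 1.16 and 0.22 (adjusted p = 0.0830 and 0.641, edgeR). Of 14 genes that supply and load class I peptides, 6 rose (42.9%, against 26.7% of all tested genes) and none fell (against 25.1%), with a median of 0.35. TAP1, the peptide transporter subunit whose gene neighbours PSMB9, averaged 33.3 ± 1.03 CPM in knockdown cells and 18.4 ± 2.79 CPM in control cells, a log2 fold change of 0.85 (adjusted p = 0.00115, edgeR). ERAP2 and ERAP1, which trim peptides, and TAP2 rose by 2.47, 0.84 and 0.49 on the log2 scale.

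Markers of immune cells, which carry high levels of the immunoproteasome, were near 0 in both groups. Of 12 such genes 4 had no count in any library, and their summed level ran from 3.77 to 4.21 CPM in knockdown libraries and from 1.34 to 2.78 CPM in control libraries. PTPRC, the common leukocyte antigen, had 0, 3 and 1 counts in knockdown cells, against 0, 0 and 1 in control cells, and CD14 was the 1 marker tested (log2 fold change 0.99, adjusted p = 0.0366, edgeR), a call lost without knockdown replicate 1 (0.0783), knockdown replicate 3 (0.118), control replicate 1 (0.0878) or control replicate 2 (0.122). The summed level of 5 endothelial markers was 5.86 to 7.30 CPM in knockdown libraries and 0.506 to 0.692 CPM in control libraries, nearly all of it from KDR, while PECAM1, CDH5, VWF and CLDN5 had at most 5 counts in any library. Fibroblast markers summed to 47.8 to 51.2 CPM in knockdown libraries and 80.7 to 94.9 CPM in control libraries, with COL1A2, DCN and FAP at 0 in all 6. COL1A1 made up most of that sum and fell by 0.92 on the log2 scale, while COL3A1 averaged 5.09 ± 1.19 CPM in knockdown cells and 2.38 ± 0.393 CPM in control cells and rose by 1.10 (adjusted p = 0.00622, edgeR). Embryonic kidney markers summed to 26.5 to 38.4 CPM in knockdown libraries and 19.1 to 20.7 CPM in control libraries. Of these 6 genes only 2 were tested, with log2 fold changes of 2.68 and -0.40. Only the first was called (50% higher, against 26.7% of all tested genes), so the sum does not stand for a shared rise. The part of these markers in the results on the proteasome was not tested.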

How the data were processed

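The 6 libraries of PANC-1 RNA were grouped by their titles. Per the labels' protocols, TRIzol was used for the RNA and the NEBNext Ultra II kit for the libraries. How reads were aligned and counted, with which annotation and strand setting, is not given in the sources used here. Raw read counts per Ensembl gene were deposited by the authors. The deposited FPKM values follow from those counts, the table's gene lengths and the column totals. Coordinates are the table's, and for 79.0% of 19852 identifiers found in GENCODE 29 (GRCh38) a gene end was at the same position. The table's length exceeds the GENCODE exon length by more than 1.3 times for 6 members (PSMA2, PSMC2, PSMD1, PSMD8, PSMF1 and PSMG2), which lowers their FPKM.

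The counts went into edgeR 4.0.16 (R 4.3.3) (filterByExpr with a minimum count of 10, TMM factors, quasi-likelihood fit, no covariates), with Benjamini-Hochberg adjustment over 12292 genes and calls at an adjusted p below 0.05. The test was tried on simulated data first. Standard errors were derived from each fold change and F statistic. The biological coefficient of variation was 14.2%. Ratios between subunits used log2(FPKM + 0.01) and exact permutation tests (scipy 1.17.1). Intervals are exact Clopper-Pearson at 95%.

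The members and lists were chosen with earlier results of these data known. In each role the members with the largest rise and fall, and all catalytic, activator and inhibitor genes, are given in most detail; from each list, up to 4 called genes by adjusted p are named besides a few regulators, except that the results of 2 genes are not reported here; further members, PSMC4 included, were named after their values were seen. Alternatives were DESeq2 1.42.0, its size factors in edgeR, library size alone, no filter, limma 3.58.1 on log2(FPKM + 1), a replicate block, an adjusted p of 0.01, a length trend (mgcv 1.9.3), other pseudocounts and libraries left out. Exon-union lengths were added after the data were seen. Promoter windows were searched for motif letters on both strands.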

Additional observations from a re-analysis of the deposited data

How the results depend on the processing

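The calls of PSMB8, PSMB9 and PSMA1 and of 10 of the 12 members that fell held under every other scaling, filter, tool and left-out library, and PSMA1 missed only a threshold of 0.01. The exceptions are PSMD9, described above, and PSMB1, which was also lost with library size alone (adjusted p = 0.131), limma (0.131) and the replicate block (0.0611). The number of members called higher was 3 to 6 with 1 library left out, with 6 reached when knockdown replicate 2 was dropped, and the number called lower 10 to 17. Dropping both libraries that stood apart gave 13 called higher and 25 lower, and DESeq2 on all libraries 3 and 14. The cause was not tested, and with 2 libraries a group the spread then comes from the pairs most alike. The core to cap difference was -0.154 with FPKM summed before taking logs. The 3 ratios of inducible to constitutive subunit kept their direction under all alternatives, and with 1 FPKM added they were 2.31, 1.43 and 0.70. Members near 0 changed sign as libraries were left out: PSME4 ran from -0.053 to 0.16, PSMA5 from -0.25 to 0.087, PSMD1 from -0.044 to 0.11, PSMD10 from -0.15 to 0.14, PSMA7 from -0.20 to 0.24, PSMC3 from -0.024 to 0.25, PSMC4 from -0.12 to 0.029 and PSMD4 from -0.35 to 0.057. CIITA ran from -0.020 to 0.46. With library size alone PSMD10 was 0.056 and PSMC4 0.035, and with limma they were 0.016 and 0.025. Of these, PSMD10 was called on the other side of 0, at 0.14 with both libraries dropped (adjusted p = 0.00285, edgeR).

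The replicate numbers did not pair the libraries: deviations from the group means correlated at -0.30, -0.28 and 0.30 between libraries of the same number, and knockdown replicate 2 went best with control replicate 1 (0.45). With the number as a replicate block, 3 members were higher and 11 lower, and PSMA7 was -0.011. Counts of at most 22 limit what can be said of PSMB10. Fold change moved with gene length: the median was -0.20 in the fifth of shortest genes and 0.22 in the fifth of longest. With a length trend subtracted, for which no test was made, 12 of 46 members moved by more than their standard error: PSMD1 was -0.34, PSMC6 -0.028, PSMC2 -0.088 and PSME4 -0.21, all with the sign turned, as for CIITA at -0.22, and PSMA4 was 0.079 and PSMG2 -0.54. The others, PSMF1, PSMD6, PSMD11, PSMD14, PSMG1 and PSMG4, kept their direction. TAP2 was then 0.25, NFE2L2 0.64 and NFKB1 -0.99.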

Other observations

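PSMC4 was far more abundant than the other proteasome genes in both groups, at 755 ± 116 FPKM in knockdown cells and 737 ± 53.7 FPKM in control cells (SD, n = 3 each), above 99.9% of genes. Of the genes on either side of it on chromosome 19, chosen after their values were seen, several were also high. FBL, the nucleolar methyltransferase fibrillarin, averaged 1124 ± 362 FPKM in knockdown cells and 1424 ± 129 FPKM in control cells. SUPT5H, a transcription elongation factor, averaged 212 ± 4.25 FPKM in knockdown cells and 162 ± 5.49 FPKM in control cells. The mitochondrial import subunit TIMM50 averaged 132 ± 36.6 FPKM in knockdown cells and 142 ± 29.3 FPKM in control cells, and the kinase AKT2 107 ± 2.48 FPKM in knockdown cells and 98.5 ± 2.90 FPKM in control cells. Other genes between them were low, such as FCGBP with 0.297 ± 0.0342 FPKM in knockdown cells and 0.222 ± 0.0642 FPKM in control cells.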
